A study of Mus musculus with 384 samples.

Results

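The genes described here are 32 genes of cholesterol and fatty acid synthesis, taken by symbol from a table of 46517 mouse genes measured in single cells of the hair follicle. All 32 were found in the table. They fall into 17 genes of the mevalonate and sterol pathway, 4 genes of sterol sensing and transport, and 11 genes of fatty acid synthesis, elongation and desaturation. The cells came from back skin of mice at postnatal day 70 and were sorted singly as alive (DAPI-negative), integrin α6-positive and YFP-positive, in a Sca-1-negative and a Sca-1-positive gate. Sca-1 is a surface protein found mostly outside the bulge, on keratinocytes of the upper follicle and epidermis. Both genotypes carried Sox9-CreER, a tamoxifen-inducible recombinase driven by a gene of hair follicle stem cells, the reporter R26-YFPfl/fl and 2 floxed Nfix alleles. The group labelled cKO had 1 floxed Nfib allele (NFIBfl/+) and the group labelled dKO had 2 (NFIBfl/fl), so the floxed Nfix alleles (NFIXfl/fl) are shared and no group is free of floxed Nfi alleles. Nfib and Nfix encode nuclear factor I (NFI) transcription factors. The series text gives the name NFIB-cKO to the group with 1 floxed Nfib allele, and no dose or time of tamoxifen is stated in what was used here.

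Cells make cholesterol from acetyl-CoA: HMG-CoA synthase (Hmgcs1) starts the mevalonate branch, Fdps makes farnesyl diphosphate, Fdft1 and Sqle form squalene and its epoxide, Lss closes the ring, and a chain of enzymes ending with Dhcr7 turns lanosterol into cholesterol or its precursors. Fatty acids are built from the same acetyl-CoA, which Acly and Acss2 supply, Acaca activates and Fasn joins into chains that Elovl enzymes lengthen and Scd and Fads enzymes desaturate. Both branches are controlled by the sterol regulatory element binding proteins, encoded by Srebf1 and Srebf2. These are membrane-bound precursors that Scap carries to the Golgi for cleavage when sterols are low, while Insig proteins hold them back, so the RNA level of Srebf genes does not show how active they are. In skin, these pathways are known for sebum, for the lipids of the epidermal barrier and for the membranes of dividing cells.

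TPM (a transcript share scaled by gene length) was given for each cell, and 378 cells passed a minimum of 1000 genes detected (1 TPM or above), leaving out 6. The Sca-1-negative gate held 71, 47 and 65 cells on cKO plates 1, 2 and 3 and 93 and 61 cells on dKO plates 1 and 2, 337 in all. The Sca-1-positive gate held 22 cells on cKO plate 3 and 19 cells on dKO plate 2. The median number of genes per cell ran from 4770 to 5199 over these 7 groups of cells, and depth in reads is unknown because TPM does not keep it. All cells are labelled as male, but Xist, the RNA of the inactive X chromosome, averaged 44.5 to 59.8 TPM on cKO plates 1 and 2 and dKO plate 1 (the Xist plates) and at most 0.102 TPM in Sca-1-negative cells of cKO plate 3 and dKO plate 2, where Y-linked genes were found (the Y plates). Genotypes are therefore also compared within each kind of plate. Each genotype thus held cells of more than 1 animal, but the labels tie no cell or plate to an animal, so no test was made and plates are shown apart rather than as replicates. The size rules below describe differences and are not tests. Cd34, the bulge stem cell marker, reached 10 TPM in no Sca-1-positive cell. The 7 basal keratinocyte markers were present in all 7 groups of cells, and the 8 adipocyte markers summed to at most 0.0344 TPM in each of them. Nfib RNA had plate means of 80.4, 72.8 and 67.1 TPM for cKO against 58.4 and 90.4 TPM for dKO, and Nfix 46.7, 48 and 43.7 against 29.6 and 32.3 TPM. Gene-level TPM does not separate a transcript that lacks a floxed exon from an intact one, so these levels do not check the labels.

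The stretches upstream of 4 of the members named below are shown. Hmgcs1 is the member past the genotype rule among Cd34-positive cells, though not over all Sca-1-negative cells. Dhcr7, Elovl5 and Hsd17b7 are the members that were lower in Krt79-positive than in Cd34-positive cells. No such stretch was at hand for Fdps, Scd1 and Scd2, which were also called below, and those of Cyp51 and Sc5d, called as well, are not shown. Each is the 250 bases before a start site in RefSeq (GRCm38.p6), written 5′ to 3′ on the gene's own strand. They lie at chr13:119690101-119690350 (plus strand) for Hmgcs1, chr7:143822917-143823166 (plus) for Dhcr7, chr9:77917115-77917364 (plus) for Elovl5 and chr1:169969206-169969455 (minus) for Hsd17b7. Capitals mark 3 motifs searched on both strands: the sterol regulatory element core TCACNCCAC, the inverted CCAAT box ATTGG, and the E-box CACGTG.
Hmgcs1: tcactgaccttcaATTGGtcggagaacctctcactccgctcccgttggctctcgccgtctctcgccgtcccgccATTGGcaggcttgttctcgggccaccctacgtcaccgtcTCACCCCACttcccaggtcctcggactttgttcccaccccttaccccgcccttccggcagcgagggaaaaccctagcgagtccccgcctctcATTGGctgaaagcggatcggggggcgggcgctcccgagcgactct
Dhcr7: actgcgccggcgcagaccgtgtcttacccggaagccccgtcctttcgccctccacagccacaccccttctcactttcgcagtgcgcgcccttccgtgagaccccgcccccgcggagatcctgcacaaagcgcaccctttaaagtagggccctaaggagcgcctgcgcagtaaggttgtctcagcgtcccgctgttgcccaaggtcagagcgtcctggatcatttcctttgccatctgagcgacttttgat
Elovl5: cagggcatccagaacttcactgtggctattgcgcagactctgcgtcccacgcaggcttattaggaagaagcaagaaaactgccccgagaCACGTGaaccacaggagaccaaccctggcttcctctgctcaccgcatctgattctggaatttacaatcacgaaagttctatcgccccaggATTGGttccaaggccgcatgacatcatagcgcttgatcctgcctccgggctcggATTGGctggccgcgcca
Hsd17b7: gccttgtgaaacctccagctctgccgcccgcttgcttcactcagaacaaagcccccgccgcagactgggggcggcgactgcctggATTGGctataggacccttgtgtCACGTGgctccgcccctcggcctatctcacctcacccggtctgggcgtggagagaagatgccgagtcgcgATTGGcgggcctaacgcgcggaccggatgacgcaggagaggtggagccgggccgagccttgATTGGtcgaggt

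Hmgcs1 holds the sterol regulatory element core and 3 CCAAT boxes. The stretch of Dhcr7 holds none of the 3 motifs. RefSeq gives 2 more start sites for this gene, and their windows hold an E-box in one case and CCAAT boxes in the other. Elovl5 and Hsd17b7 each hold an E-box, with 2 and 3 CCAAT boxes. Windows of 300 bases (250 before and 50 after a start) were at hand for 25 of the 32 members, 31 windows in all, and for 32851 starts of all genes. The sterol core was found in 1 of the members' 31 windows (3.23%, Hmgcs1) and in 1.24% of all windows. The CCAAT box was found in 71% of the members' windows against 37.4% of all, and in 21 of the 25 members. The E-box was in 16.1% against 7.15%, in Dhcr7, Elovl5, Hsd17b7, Insig1 and Sc5d. The NFI half-site TTGGCA, which can overlap a CCAAT box, was in 6.45% of the members' windows (Hmgcs1 and Srebf2) and in 14.1% of all windows. A match in these letters is a description of the windows and not a binding site.

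Most lipid synthesis genes were low and patchy in these cells. Averaged over the 5 plates of Sca-1-negative cells, 8 members reached 10 TPM, 9 stood between 5 and 10 TPM, 12 between 1 and 5 TPM, and 3 (Mvd, Fads1 and Fads2) under 1 TPM. A cell held a median of 6 members at 10 TPM or more, the level used here to call a cell positive, with a range of 0 to 23. Of the members, 20 were positive in fewer than 25% of cells on every plate, and 3 (Srebf1, Srebf2 and Acly) in more than 50% on every plate. Fads2, the delta-6 desaturase, was listed at 0 in every cell, which allows a share of up to 0.794% of the kept cells above 0.

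**Figure D1:**
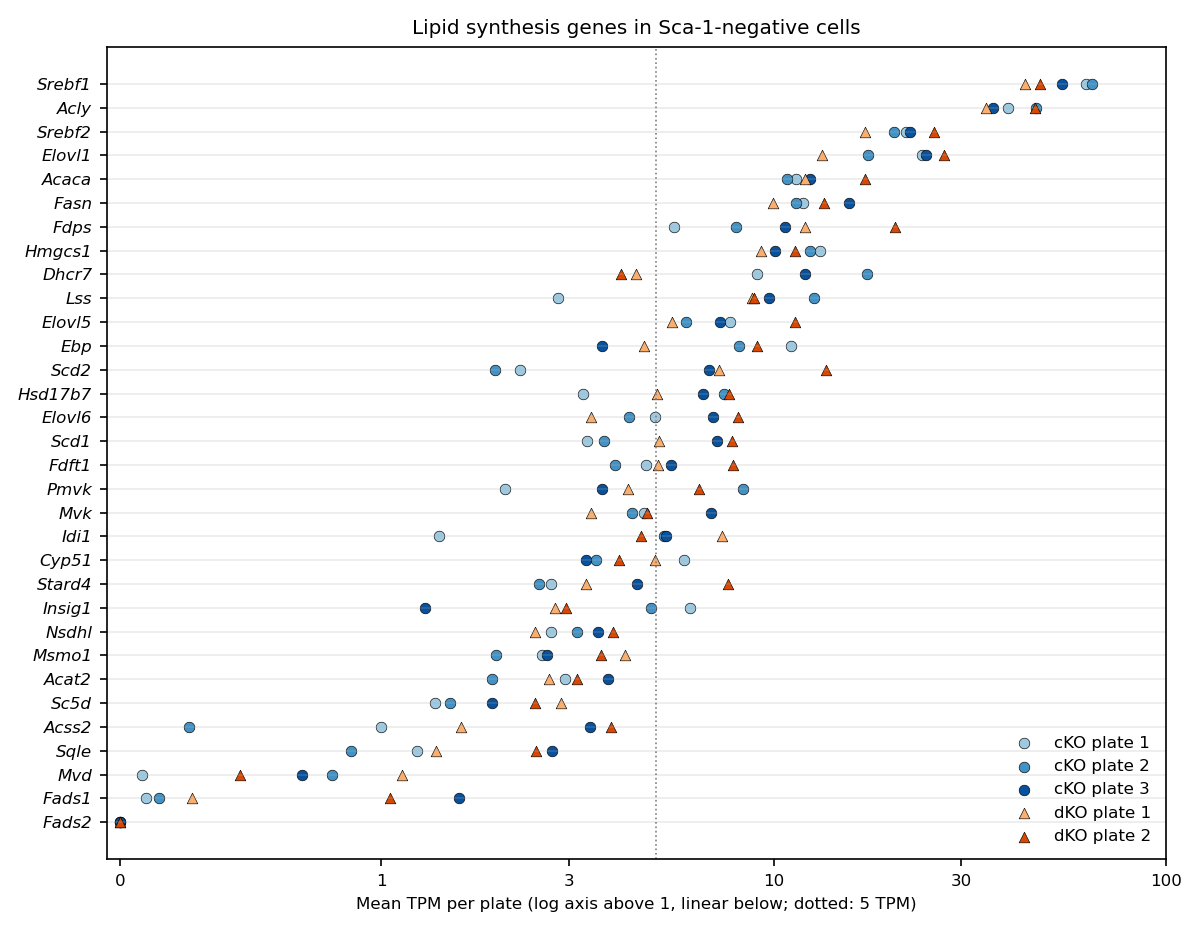
Mean TPM of the 32 members in Sca-1-negative cells, 1 point per plate (circles cKO, triangles dKO), ordered by the mean over 5 plates, on an axis that is logarithmic above 1 TPM. Srebf1 and Acly lead, Fdps and Scd2 have both dKO plates to the right of the cKO plates, and Dhcr7 has them to the left.

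Srebf1 and Srebf2 were among the highest members. Srebf1, which encodes the regulator tied mostly to fatty acid genes, averaged 62.6, 64.7 and 54.3 TPM on cKO plates 1, 2 and 3 and 43.8 and 47.7 TPM on dKO plates 1 and 2. Srebf2, whose product is tied mostly to sterol genes, averaged 21.8, 20.3 and 22.3 TPM and 17.1 and 25.6 TPM. Mean TPM of Srebf1 was lower on both dKO plates than on every cKO plate, by 1.32-fold, while the means of log2(TPM + 1) overlapped; for Srebf2 the genotypes overlapped on both scales. Insig1, which retains the SREBP-Scap complex, averaged 1.29 to 6.11 TPM by plate, and Stard4, a sterol transfer protein, 2.52 to 7.66 TPM.

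Among fatty acid genes, Acly, which makes cytosolic acetyl-CoA from citrate, had plate means of 39.5, 46.5 and 36.3 TPM for cKO against 34.7 and 46.3 TPM for dKO. Elovl1, an elongase of very long saturated chains, averaged 23.9, 17.4 and 24.4 TPM against 13.3 and 27.1 TPM. Acaca, the acetyl-CoA carboxylase that makes malonyl-CoA, averaged 11.4, 10.8 and 12.4 TPM against 12 and 17.1 TPM, and 32.4% of its 37-base windows also occur in transcripts of other genes, so its share of reads depends on how they were divided. Fasn, the fatty acid synthase, averaged 11.9, 11.4 and 15.6 TPM against 9.95 and 13.4 TPM. None of these 4 separated the genotypes: on mean TPM the cKO and dKO plates overlapped in each.

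Among sterol genes the order of levels was Fdps (11.3 TPM over the 5 plates), Hmgcs1 (11.2), Dhcr7 (9.38) and Lss (8.60), and the plate ranges of neighbours in this order overlapped. Hmgcs1 had plate means of 13.1, 12.4 and 10.1 TPM for cKO against 9.27 and 11.3 TPM for dKO. The remaining sterol enzymes stayed between 0.636 TPM (Mvd, which makes isopentenyl diphosphate) and 7.32 TPM (Ebp, a sterol isomerase). Means rested on few cells: the highest 5% of cells held 79.2% of all Dhcr7 TPM on cKO plate 1 and 40.2% of Fdps TPM on dKO plate 1, against 22% to 35.9% of Srebf1 TPM over the plates of Sca-1-negative cells.

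In the comparison of dKO with cKO, which asks what loss of the remaining Nfib allele adds where the floxed alleles recombined, 2 lipid genes were higher in dKO and none was lower. A gene was called when its ratio of plate-averaged TPM (with 1 TPM added to both) was at least 1.5 in either direction and no dKO plate overlapped a cKO plate in mean TPM or in mean log2(TPM + 1). Of the 17 members averaging at least 5 TPM, Fdps and Scd2 passed in the higher direction, where 1.77% of 7060 genes passed, and none passed in the lower direction, where 3.95% did. The median log2 ratio was 0.06 over the 17 members and -0.12 over all genes compared.

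Fdps, the farnesyl diphosphate synthase at the branch point to sterols and protein prenylation (chromosome 3, 89093588 to 89101959, minus strand, GRCm38), had plate means of 5.56, 8 and 10.7 TPM for cKO against 12 and 20.4 TPM for dKO, a 1.89-fold difference. The gap between the highest cKO plate and the lowest dKO plate was small, and cells at 10 TPM or more were 16.9%, 23.4% and 20% for cKO against 28% (exact 95% interval 19.1% to 38.2%) and 37.7% (25.6% to 51%) for dKO. Intervals here and below cover counting of cells only. Of the 37-base windows of Fdps transcripts, 27.5% are shared with other genes, chiefly the overlapping Gm43738, so the level of Fdps is uncertain to that extent. Scd2, a stearoyl-CoA desaturase that makes monounsaturated fatty acids (chromosome 19, 44293674 to 44306864, plus strand), had plate means of 2.26, 1.95 and 6.86 TPM for cKO against 7.27 and 13.6 TPM for dKO, 2.44-fold higher. Its positive cells were 9.86%, 6.38% and 23.1% for cKO against 25.8% and 45.9% for dKO. cKO plate 3 stood well above the other cKO plates for Scd2 and just below dKO plate 1. Scd2 averaged 3.69 TPM over the cKO plates and 10.4 TPM over the dKO plates. It was thus under 5 TPM in cKO and was compared only through dKO, where it was high.

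Dhcr7, the 7-dehydrocholesterol reductase of the last step (chromosome 7, 143823145 to 143848410, plus strand), had the lowest ratio. It had plate means of 9.09, 17.3 and 12 TPM for cKO against 4.45 and 4.09 TPM for dKO, 2.62-fold lower. Mean TPM did not overlap, but mean log2(TPM + 1) did (0.82, 1.26 and 1.09 against 0.96 and 0.72), so it was not called. The share of positive cells overlapped as well, at 11.3%, 19.1% and 18.5% against 14% and 11.5%. Cells at 50 TPM or more numbered 3, 5 and 6 for the cKO plates against 1 and 1 for the dKO plates, so the difference in mean lay in a few high cells.

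Within the Xist plates the log2 ratio was 0.74 for Fdps, 1.41 for Scd2 and -1.38 for Dhcr7, and within the Y plates 0.87, 0.89 and -1.35. These 3 genes kept their direction in both kinds. This follows from their mean TPM not overlapping between the cKO and dKO plates, and adds no support of its own. Of the 17 members, 5 were higher in dKO in both kinds of plate, 3 were lower in both, and 9 went in opposite directions, among them Ebp (-0.90 on Xist plates and 1.11 on Y plates). The members' median was -0.27 on the Xist plates, where that of all 7060 genes was -0.23, and 0.19 on the Y plates against 0.04.

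**Figure D2:**
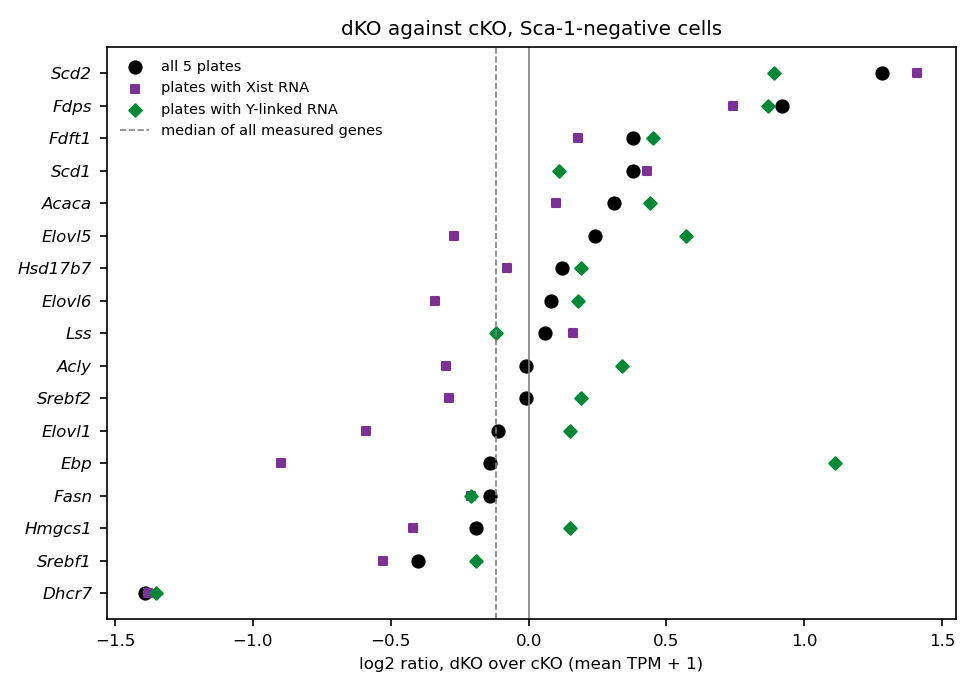
Log2 ratio of dKO over cKO for the 17 members averaging at least 5 TPM in Sca-1-negative cells, over all plates (circles), Xist plates (squares) and Y plates (diamonds); the dashed line is the median of all genes compared (-0.12). Scd2 and Fdps lie to the right and Dhcr7 to the left in both kinds of plate, as plate means without overlap require, while Ebp lies on opposite sides.

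Cells with at least 3 of 15 cell cycle genes at 10 TPM made up 19.7%, 10.6% and 18.5% of cells by plate in cKO and 12.9% and 14.8% in dKO. Without them no member passed: Fdps averaged 5.37, 8.69 and 11.3 TPM against 11 and 21.8 TPM, and Scd2 1.83, 1.83 and 7.18 TPM against 6.5 and 14.1 TPM, each with 1 pair of plates overlapping narrowly. Leaving out dKO plate 2 also left no call: the log2 ratio of Fdps (0.52) was then short of the rule, and Scd2 (0.82) averaged under 5 TPM and was not compared. Leaving out dKO plate 1 gave 4 higher (Fdps, Fdft1, Scd1 and Scd2) and Dhcr7 lower; Dhcr7 was called lower too without cKO plate 1. With median-of-ratios size factors, Fdps and Scd2 still passed, and calls over all genes changed to 2.80% higher and 2.10% lower as the median of all genes moved from -0.12 to -0.02. With the ERCC and the 5 most abundant rows removed they were 4.81% and 3.16%, and Sc5d passed too. The row Rn18s-rs5 took 61.5% of TPM on dKO plate 1 and 55.3% to 56.8% on the others. Summed sebaceous gland markers were 41.3 to 49.6 TPM for the cKO plates against 30.2 to 33.5 TPM for the dKO plates, with Awat1, Dgat2l6 and Cidea at 0 on all 5, and suprabasal markers 74.6 to 416.2 and 294.4 to 434.0 TPM. The 8 bulge stem cell markers summed to 835.2, 1089.3 and 645.1 TPM for cKO against 401.7 and 553.9 TPM for dKO, and the 8 upper follicle markers to 726.4, 873.5 and 1007.8 against 1123.3 and 1166.3 TPM, both without overlap. The upper follicle sum was higher in dKO although 7 of its 8 genes had lower levels there (median log2 ratio -0.48). Of the bulge genes, 5 were lower in dKO and 3 higher. Krt15, the largest part of that sum, was called lower (565.9 against 232.8 TPM) and Cd200 higher (25.3 against 42.6 TPM). On the Xist plates 7 bulge genes were lower in dKO (median log2 ratio -0.65), and on the Y plates 6 were higher (0.28). The part of these markers in the genotype differences was not tested.

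Of 11 genes of SREBP processing and its control, 9 were compared and 2 were lower in dKO: Scap, the SREBP escort (43.3, 54.7 and 58.9 TPM against 35.2 and 32.2 TPM, 1.53-fold), and Insig2, which retains it (29, 29.2 and 19.1 TPM against 16.7 and 14.8 TPM, 1.6-fold). The median log2 ratio of these 9 was -0.24, against -0.12 for all genes compared. By the same rule 3.95% of 7060 genes were lower in dKO and 1.77% higher. Of 6 compared genes of other sterol branches, Fntb, a subunit of the farnesyltransferase that uses the product of Fdps, was higher (7.11, 9.73 and 11.4 TPM against 16.3 and 17.5 TPM, 1.71-fold), and none was lower. Of 10 compared genes of other fatty acid elongation, activation and supply, only Acsbg1, an acyl-CoA synthetase, passed, 10.7-fold lower in dKO. None of the 10 compared genes of fatty acid oxidation passed; the highest of these, Hadha, stood at 45.6 TPM for cKO against 37.5 TPM for dKO, and Acadvl 23.7 and 18.8 TPM.

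Sca-1-positive cells, compared with Sca-1-negative cells of the same plate, showed higher Fdps and Sc5d on cKO plate 3 and no member past the rule on dKO plate 2. The rule asked for a 2-fold ratio of mean TPM and a difference of 1 in mean log2(TPM + 1), among genes at 5 TPM in either gate. On cKO plate 3, 2 of 22 members compared were higher, where 2.99% of 7735 genes were, and none was lower, where 5.52% were. On dKO plate 2 none of 21 was higher or lower, where 4.10% and 10.2% of 7677 genes were. Sc5d reached 5 TPM in the Sca-1-positive gate of cKO plate 3 alone, so it was compared there only through the gate where it was high and was not compared on dKO plate 2. The members' median log2 ratio was 0.27 and -0.14 on these plates, against -0.20 and -0.38 for all genes.

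On cKO plate 3, Fdps averaged 10.7 TPM in negative and 27.6 TPM in positive cells, with 20% and 50% of cells positive for it. On dKO plate 2 it averaged 20.4 and 19.9 TPM with 37.7% and 57.9% positive cells, so its mean level there was close in both gates while more cells of the Sca-1-positive gate reached 10 TPM. Sc5d, the sterol C5-desaturase (chromosome 9, 42251595 to 42264256, minus strand), stood at 1.91 TPM in negative and 9.81 TPM in positive cells of cKO plate 3 and at 2.47 and 4.35 TPM in those of dKO plate 2. Positive cells for Sc5d were 6.15% and 27.3% (10.7% to 50.2%) on the former plate and 6.56% and 21.1% (6.05% to 45.6%) on the latter, the Sca-1-positive gate being higher on both.

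Elovl5, an elongase of polyunsaturated fatty acids (chromosome 9, 77917364 to 77984519, plus strand), was lower in the Sca-1-positive gate on both plates. It averaged 7.29 TPM in negative and 0.325 TPM in positive cells of cKO plate 3, 6.25-fold lower, and 11.3 and 2.22 TPM on dKO plate 2, 3.83-fold lower. Differences in mean log2(TPM + 1) were -0.97 and -0.50, short of the rule. None of 22 Sca-1-positive cells on cKO plate 3 reached 10 TPM, which allows a share of up to 13.6%, and 1 of 19 did on dKO plate 2, where the negative gates had 15.4% and 16.4%. Acly was also lower in both, at 36.3 and 18.3 TPM (1.93-fold) and 46.3 and 24.3 TPM (1.87-fold), with mean log2 differences of -1.28 and -1.08, and missed the 2-fold ratio. Scd1, the main skin stearoyl-CoA desaturase, was higher in both, at 7.18 and 13.1 TPM and 7.83 and 11.8 TPM, below 2-fold. Of the 20 members compared on both plates, 3 were higher in Sca-1-positive cells on both, 5 were lower on both and 12 went in opposite directions, among them Fdft1 (5.48 and 9.64 TPM on the former plate, 7.86 and 1.96 TPM on the latter), whose windows are 29.9% shared with other genes.

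**Figure D3:**
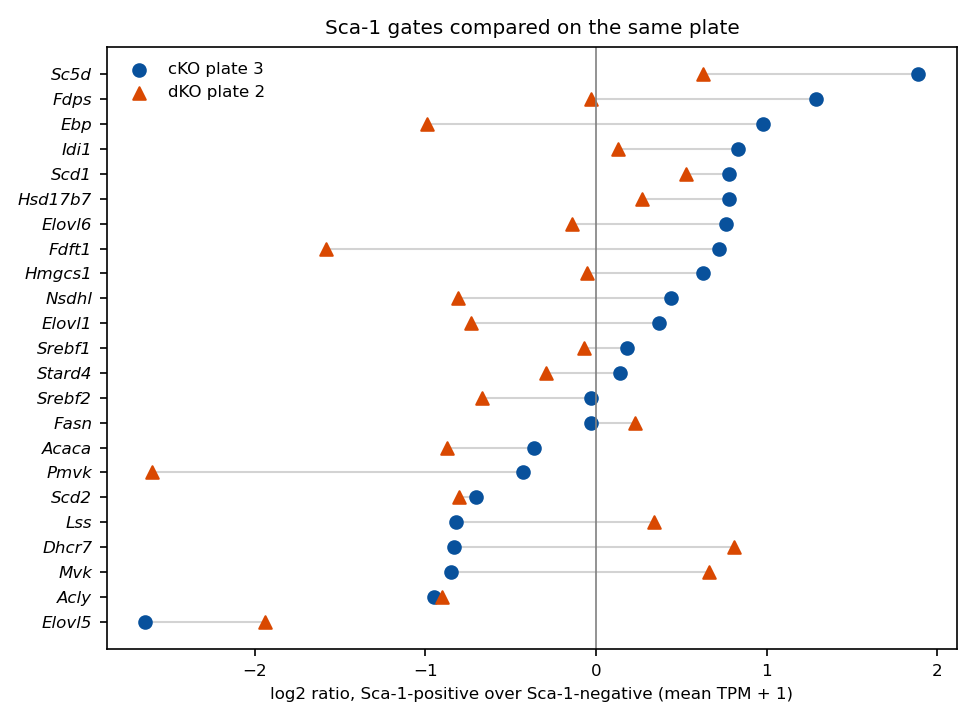
Log2 ratio of Sca-1-positive over Sca-1-negative cells on cKO plate 3 (circles) and dKO plate 2 (triangles) for the 23 members compared on either plate, joined by a line. Elovl5 and Acly lie to the left on both plates, Scd1 and Sc5d to the right on both, and Fdps is at 1.29 on the cKO plate and -0.03 on the dKO plate.

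Of related genes, Abca1, a cholesterol exporter, was lower in Sca-1-positive cells on both plates (12.7 and 5.77 TPM, then 16.2 and 5.56 TPM), and on dKO plate 2 Lrp1, a lipoprotein receptor, was lower (39.2 and 16.5 TPM) and Abcg1, another sterol exporter, higher (4.49 and 12.4 TPM). The acyl-CoA synthetase genes Acsbg1 and Acsl1 were higher on dKO plate 2 (2.82 and 23.8 TPM, and 13.4 and 30.7 TPM) and Acsl4 lower (10.4 and 1.15 TPM). None of the 3 passed on cKO plate 3. There Acsbg1 went the other way (44.7 TPM in negative and 17 TPM in positive cells). Acsl1 was close in both gates of that plate (31.6 and 29.3 TPM), and Acsl4 was lower in positive cells (8.21 and 3.8 TPM). On dKO plate 2, Abcg1, Acsbg1 and Acsl4 were each under 5 TPM in the gate where they were low. They were compared there only through the other gate. With size factors, calls over all genes became 4.41% higher and 3.42% lower on cKO plate 3, and 7.82% and 5.21% on dKO plate 2, as the median of all genes moved to -0.06 and -0.09. Fdps and Sc5d were again the only members called. Summed sebaceous gland markers were 41.3 TPM in negative and 13.7 TPM in positive cells on cKO plate 3, and 30.2 and 10.2 TPM on dKO plate 2, with Awat1, Dgat2l6 and Cidea at 0 in both gates. Of the 8 bulge stem cell markers, 7 were called lower in Sca-1-positive cells on each plate (median log2 ratios -2.86 and -3.44), with Lhx2 and Cd200 at 0 there. Of the 8 upper follicle markers, 4 were called lower and none higher on cKO plate 3 (median -0.88). On dKO plate 2, 6 were called lower and 1 higher (-2.36). The 7 basal keratinocyte markers summed to 2162.7 and 4440.8 TPM on cKO plate 3 and 2077.0 and 4963.1 TPM on dKO plate 2. Krt14 made up most of this rise (805.8 and 2293.9 TPM, then 577.5 and 2821.5 TPM) and alone was called. The 7 had median log2 ratios of 0.46 and 0.27. Cycling cells were 18.5% and 22.7% on cKO plate 3 and 14.8% and 5.26% on dKO plate 2, and without them Elovl5 and Acly passed as lower and Scd1 as higher on cKO plate 3, and Pmvk as lower on dKO plate 2. The part of gate markers and depth in these differences was not tested.

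Within the Sca-1-negative cells, those with Cd34, a surface marker of bulge stem cells, and those with Krt79, a keratin of the upper follicle and its ducts, gave 5 lipid gene calls, at shares near those of all genes. Cd34-positive cells (at least 10 TPM, with Krt79 below) numbered 23, 13, 16, 23 and 14 on cKO plates 1 to 3 and dKO plates 1 and 2, and Krt79-positive cells 10, 6, 19, 13 and 15. Genes averaging at least 5 TPM over both classes were compared. A gene was called with a ratio of at least 1.5 in plate-averaged means and the same direction on all 5 plates. Of 19 members compared, Scd1 and Cyp51 were higher in Krt79-positive cells, where 8.55% of 7097 genes were, and Dhcr7, Elovl5 and Hsd17b7 were lower, where 11.2% were. Scd1 and Cyp51 averaged 3.44 and 3.69 TPM in Cd34-positive cells. Dhcr7, Elovl5 and Hsd17b7 averaged 3.76, 4 and 3.52 TPM in Krt79-positive cells. Each of the 5 was thus under 5 TPM in its lower class and was compared only through the class where it was high. The members' median log2 ratio was 0.14 against -0.05 for all genes.

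Dhcr7 averaged 27, 51.8 and 26.2 TPM in Cd34-positive cells of the cKO plates and 8.79 and 4.24 TPM in those of the dKO plates. In Krt79-positive cells it averaged 0, 0.733 and 11.1 TPM and 2.86 and 4.08 TPM, 5.17-fold lower over the 5 plates. The classes were far apart on the cKO plates and nearly level on dKO plate 2. In Cd34-positive cells the highest Dhcr7 cell held 300.7, 223.7 and 183.5 TPM for the cKO plates against 42 and 36.6 TPM for the dKO plates, and 3, 4 and 3 cells against 0 and 0 reached 50 TPM. Shares of positive cells were closer, at 34.8%, 38.5% and 31.2% against 30.4% and 14.3%, with wide intervals (13.9% to 68.4% for 13 cells). Without the highest cell of each plate the means were 14.6, 37.5 and 15.7 TPM for cKO against 7.28 and 1.75 TPM for dKO. In cells with neither marker Dhcr7 was at 0.615, 4.83 and 4.93 TPM and 3.07 and 4.29 TPM, so the lower Dhcr7 of dKO, 4.79-fold among Cd34-positive cells, was not seen there (a log2 ratio of 0.07) or in Krt79-positive cells (-0.15). It was not called by the genotype rule among Cd34-positive cells, since the plates overlapped in mean log2(TPM + 1).

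Elovl5 averaged 20, 17.2 and 13.6 TPM in Cd34-positive cells of cKO and 8.76 and 18.4 TPM of dKO, and 0.046, 5.48 and 5.53 TPM and 4.78 and 4.19 TPM in Krt79-positive cells. Every plate had the Cd34-positive class higher, 3.31-fold over the 5 plates, and no Krt79-positive mean reached a Cd34-positive one. Its level in cells with neither marker, 0.841 to 12.1 TPM, was also below the Cd34-positive class of the same plate. Hsd17b7, a sterol 3-ketoreductase (chromosome 1, 169949535 to 169969241, minus strand), averaged 3.49, 9.53, 9.94, 4.37 and 13 TPM in Cd34-positive cells and 0.961, 4.08, 3.19, 1.69 and 7.65 TPM in Krt79-positive cells, cKO plates first. Its share of positive cells did not follow on every plate, at 21.4% and 26.7% on dKO plate 2, and single high cells of 54.8 to 96.9 TPM carried the Cd34-positive means.

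Scd1 (chromosome 19, 44394455 to 44407879, minus strand) averaged 2.99, 2.83 and 2.39 TPM in Cd34-positive cells of cKO and 0.93 and 8.08 TPM of dKO, and 4.23, 5.87 and 11.8 TPM and 9.57 and 8.75 TPM in Krt79-positive cells, 2.04-fold higher. The difference was wide on cKO plate 3 and dKO plate 1 and narrow on dKO plate 2, where fewer Krt79-positive than Cd34-positive cells reached 10 TPM (20% and 35.7%). Cyp51, the lanosterol 14-demethylase (chromosome 5, 4081145 to 4104746, minus strand), averaged 5.11, 3.32, 0.513, 5.37 and 4.13 TPM and 7.83, 9.92, 9.14, 6.68 and 4.89 TPM, 1.85-fold higher in Krt79-positive cells. Its exons overlap those of Akap9 on the other strand, which this protocol does not separate.

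**Figure D4:**
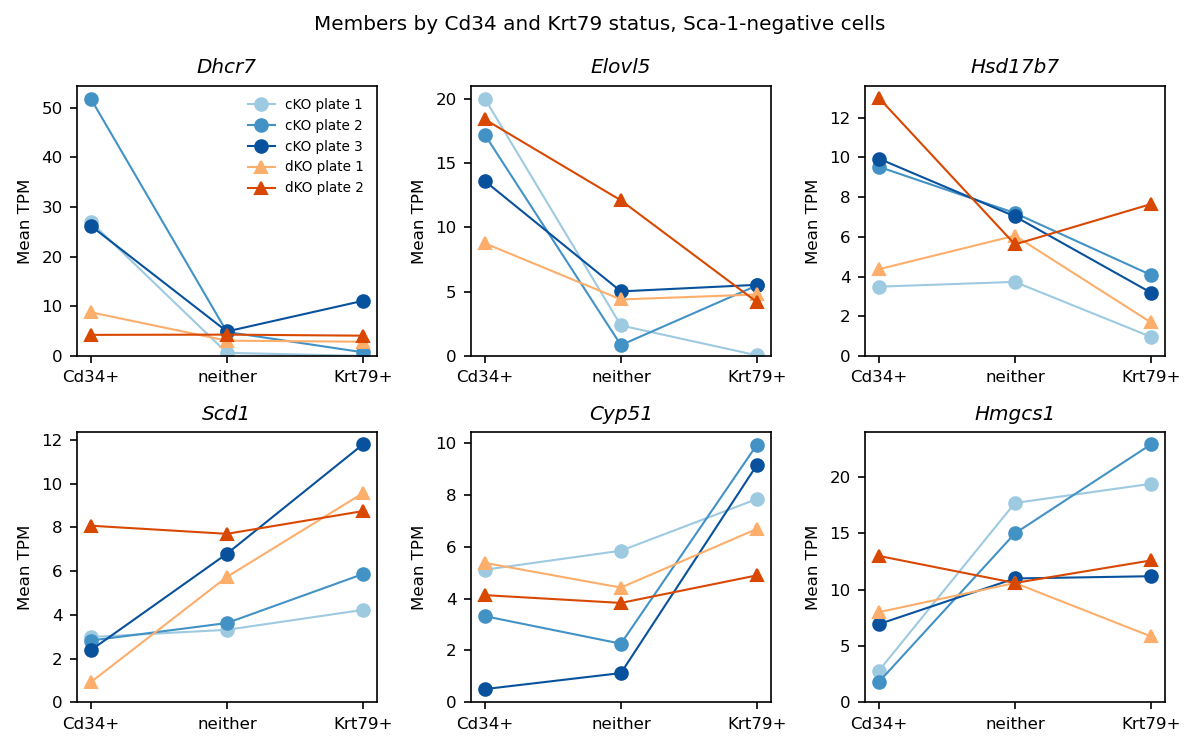
Mean TPM of 6 members in Sca-1-negative cells that were Cd34-positive, held neither marker or were Krt79-positive, 1 line per plate (circles cKO, triangles dKO). Dhcr7, Elovl5 and Hsd17b7 were higher on the Cd34-positive side of every plate, Scd1 and Cyp51 on the Krt79-positive side, and mean TPM of Hmgcs1 was higher in Krt79-positive cells on the cKO plates and lower on the dKO plates.

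Hmgcs1 (chromosome 13, 119690379 to 119708260, plus strand) differed by class in cKO, and in dKO the direction depended on the measure. In Cd34-positive cells it had plate means of 2.81, 1.82 and 6.95 TPM for cKO against 8.01 and 13 TPM for dKO, and in Krt79-positive cells 19.4, 22.9 and 11.2 TPM and 5.86 and 12.6 TPM. By mean TPM the Krt79-positive class was higher on each cKO plate and lower on each dKO plate, narrowly so on dKO plate 2. By the median cell it was higher on all 5 plates, at 7.79, 18.8 and 6.94 TPM in Krt79-positive against 0, 0 and 0 TPM in Cd34-positive cells of cKO, and 2.22 and 7.64 TPM against 0 and 0.83 TPM in dKO. The reversal in dKO thus lay in mean TPM and not in the median. Among Cd34-positive cells alone, Hmgcs1 was 2.37-fold higher in dKO with no overlap of plates. Of 18 members compared there it was the only one past the genotype rule, where 4.33% of 7178 genes passed as higher. Positive cells in that class were 13%, 7.69% and 25% for cKO against 26.1% (10.2% to 48.4%) and 42.9% (17.7% to 71.1%) for dKO. In cells with neither marker the means were 17.7, 15 and 11 TPM against 10.6 and 10.6 TPM, in the other direction. Of Hmgcs1 windows, 12.6% are shared with other genes, chiefly Gm48342 on the other strand.

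**Figure D5:**
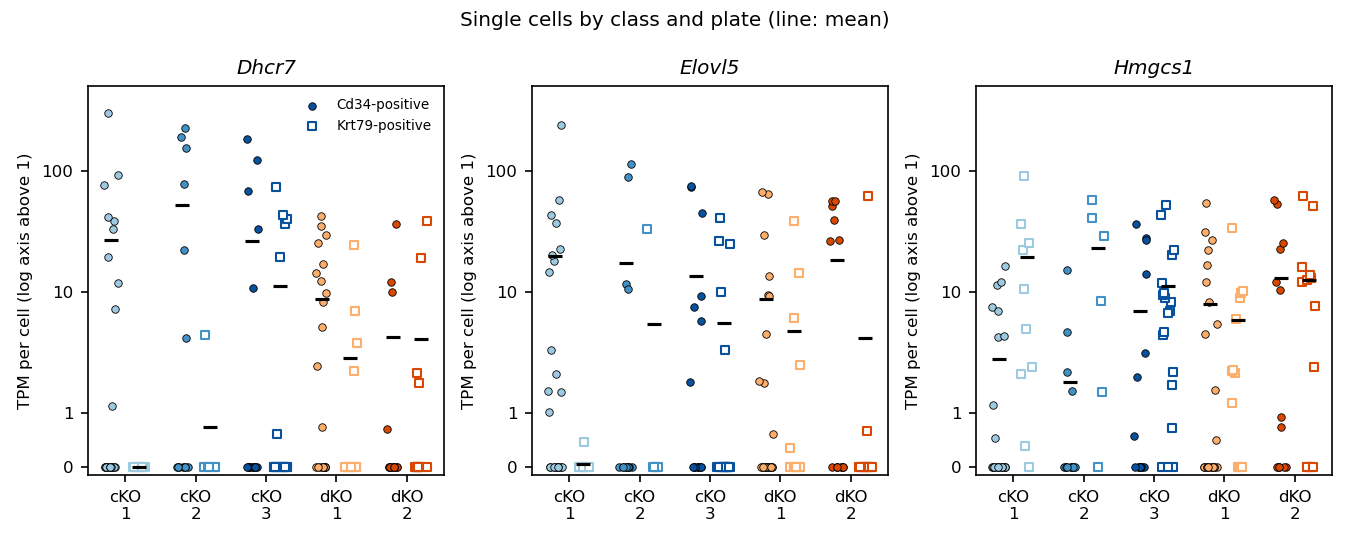
TPM of Dhcr7, Elovl5 and Hmgcs1 in each Cd34-positive cell (filled circles) and Krt79-positive cell (open squares) of the 5 plates, with black lines at the means, on an axis that is logarithmic above 1 TPM. Dhcr7 cells above 100 TPM occur among Cd34-positive cells of the cKO plates and no cell of the dKO plates reaches 50 TPM in either class.

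Scd2 and Fdps, like Hmgcs1, had no class call. Scd2 averaged 0.0296, 0.135 and 6.34 TPM in Cd34-positive cells of cKO and 5.59 and 14.8 TPM of dKO, and 4.01, 8.87 and 6.73 TPM against 6.26 and 12 TPM in Krt79-positive cells. Fdps had plate means of 1.68, 8.01 and 9.84 TPM for cKO against 12.2 and 24.3 TPM for dKO among Krt79-positive cells, where both dKO plates were higher, and 3.10, 7.67 and 16.3 TPM against 15.9 and 6.35 TPM among Cd34-positive cells, where plates overlapped. Stard4 stood at 0.428, 0.408 and 1.33 TPM in cKO cells with neither marker and at 3.54 and 9.97 TPM in dKO cells of that kind, a level under the 5 TPM filter over the 5 plates.

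Several genes next to the pathway followed the classes, named here after their values were seen. In Krt79-positive cells Insig2 averaged 49 TPM against 6.28 TPM in Cd34-positive cells and Faf2 31.4 against 17.7 TPM. Of 11 compared genes of other fatty acid elongation, activation and supply, 4 were higher and none was lower: Elovl4 (10.6 against 0 TPM), Acsl4 (22.2 against 1.68 TPM), Acsbg1 (54.6 against 8.28 TPM) and Acsl5 (21.1 against 12.5 TPM). The median log2 ratio of these 11 was 0.72. Elovl4 and Acsl4 were under 5 TPM in Cd34-positive cells and were compared only through the Krt79-positive class, where they were high. None of 10 compared genes of fatty acid oxidation was called. Over all 7097 genes compared, 8.55% were higher in Krt79-positive cells and 11.2% lower.

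Other features were uneven between the classes and changed direction between plates. Suprabasal epidermis markers summed to 34.7 to 158.9 TPM in Cd34-positive and 33.2 to 712.2 TPM in Krt79-positive cells by plate, sebaceous gland markers to 28.9 to 43.5 and 24.9 to 53.6 TPM, apart from cKO plate 2, whose 6 Krt79-positive cells were higher still, and cell cycle genes to 23.5 to 101.2 and 40.9 to 178.4 TPM. Awat1, Dgat2l6 and Cidea were at 0 in both classes on every plate. On cKO plate 2 suprabasal markers were lower in Krt79-positive cells (33.2 against 141.6 TPM), on both dKO plates sebaceous markers were (33.9 against 35.5 and 24.9 against 33.8 TPM), and on dKO plate 2 cell cycle genes were (40.9 against 87.3 TPM). The median number of genes ran from 4610.5 to 5348.5 in Cd34-positive and from 5021.5 to 5926 in Krt79-positive cells, and was lower in the latter on dKO plate 2 alone (5200 against 5348.5). The part of these features in the class differences was not tested, except that without cycling cells Hsd17b7 and Elovl5 still passed as lower, Dhcr7 (log2 ratio -1.33), Scd1 (0.80) and Cyp51 (0.56) no longer passed, and no member was called higher. With size factors Dhcr7 (-2.26) no longer passed as lower, and the other 4 did. With the classes set at 1 TPM only Scd1 of the members named above passed as higher and only Elovl5 as lower, joined by Elovl6.

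Over the 337 Sca-1-negative cells, the 17 members varied with little relation to each other. The median Spearman correlation over their pairs was 0.10, against 0.02 over all pairs of genes compared, and ranged from -0.15 to 0.31. Summed sterol and summed fatty acid TPM had a correlation of 0.13 across cells, and each had 0.17 with the number of genes detected. Cells share plates and libraries and zeros are frequent, so these values are descriptions.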

How the data were processed

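Single cells were amplified by Smart-seq2, tagmented with Nextera XT and sequenced in paired-end mode, per the labels' protocols; this protocol has neither unique molecular identifiers nor strand information. The authors deposited TPM values for 46609 rows, of which 92 are ERCC spike-ins, made with Bowtie2 2.2.9 and RSEM 1.2.30 on mm10 (GRCm38), per the submitters' processing notes (which annotation release was used is not given there). Reads that match more than 1 gene are divided by RSEM's model, and TPM keeps no depth, so precision was read from numbers of cells.

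From these values, means of TPM and of log2(TPM + 1) were computed per plate, gate and class (Python 3.11.15, numpy 2.4.6, pandas 2.3.3, scipy 1.17.1), over cells with at least 1000 genes. Before each ratio 1 TPM was added as a pseudocount, so low genes differ more than their ratios show; genotype means weighted plates equally. Because the labels tie no cell to an animal, no test was run. The size rules, stated in the report, were run over all genes. Members past a rule or averaging 10 TPM have every plate's value; of other lists, up to 3 genes past the genotype or gate rule are named, otherwise the 2 highest. Some genes of the other lists are not reported here. Members and lists were chosen with earlier results of these data known. Shares carry exact (Clopper-Pearson) 95% intervals, and a share of 0 the limit that 3 cells give. Shared windows are 37-base stretches of GENCODE M21 transcripts; promoter windows are from RefSeq, GRCm38.p6, for 25 of 32 members. Alternatives varied the pseudocount, filters on cells and genes, scaling, thresholds, plates, classes and cells.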

Additional observations from a re-analysis of the deposited data

Results flagged for a closer look

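Mean TPM of Hmgcs1 took opposite directions between Krt79-positive and Cd34-positive cells in the 2 genotypes, while its median was higher in Krt79-positive cells on all 5 plates: the log2 ratio of means was 1.95 over the cKO plates, each of them positive, and -0.17 over the dKO plates, each of them negative, narrowly so on dKO plate 2 (12.6 against 13 TPM). Srebf2 went the other way, at -0.35 in cKO and 0.23 in dKO. Fdps was higher in Sca-1-positive cells of cKO plate 3 (1.29) and level on dKO plate 2 (-0.03). None of these differences between genotypes was tested, since the labels tie no cell to an animal, and the direction of a ratio near 0 carries little.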

How the results depend on the processing

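Alternatives were planned except for the comparison of classes within each genotype, which was chosen after seeing the data. No log2 ratio of a called member changed sign under the alternatives run; of members not called, Dhcr7 (dKO over cKO) ranged from -2.26 to 0.07, Hmgcs1 from -0.43 to 1.24, and Fdps between gates of dKO plate 2 from -0.16 to 0.45. With a pseudocount of 10 TPM, no member was called higher in dKO, in Sca-1-positive cells of cKO plate 3 or in Krt79-positive cells (0 each). With a 20 TPM filter these counts were 0, 1 and 0, and 0 members were lower in Krt79-positive cells, where 3 were called, because fewer members remained. Without the highest 5% of cells 1 member was higher in dKO (Fdps), 1 lower in Sca-1-positive cells of cKO plate 3 (Acly) and 1 higher in Krt79-positive cells. This last was Srebf1, which the main rule had not called, and neither Scd1 nor Cyp51 was called. Without cycling cells 0 were higher in dKO, 2 lower in Sca-1-positive cells of cKO plate 3, 1 lower on dKO plate 2 and 0 higher in Krt79-positive cells. After removal of ERCC and the 5 most abundant rows, 4 were higher and 1 lower in Sca-1-positive cells of cKO plate 3, and 1 lower on dKO plate 2. With a ratio of 2, 1 was higher in dKO and 1 higher in Krt79-positive cells. With a ratio of 1.5 and no log2 rule, 9 were higher and 5 lower in Sca-1-positive cells of cKO plate 3, and 2 higher and 9 lower on dKO plate 2. Xist plates alone gave 1 higher in dKO, and Y plates alone 5 higher and 1 lower (Dhcr7). Cd34-positive cells alone gave 1 higher in dKO (Hmgcs1), and cells with neither marker gave 1 other (Scd2). Class thresholds of 1 and 30 TPM gave 1 and 0 higher in Krt79-positive cells. Leaving out 1 plate at a time gave 0 to 4 members higher and 0 to 1 lower in dKO, and 2 to 3 higher and 2 to 4 lower in Krt79-positive cells. The cause of the other changes was not tested. Removing cells with markers of other types removed none (0 cells). No paired analysis was possible because no result comes from a test and the plate numbers do not name animals. Few positive cells per plate limit the low members most.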

Other observations

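Members were also read in cells with at least 3 of 15 cell cycle genes at 10 TPM, a comparison chosen after the data were seen. Of the Sca-1-negative cells, 52 were of this kind and 285 were not. Cyp51 averaged 9.37 TPM in the former and 3.58 TPM in the latter, a level of 5 TPM being reached in the cycling cells only. By plate it averaged 5.99, 3.87 and 6.82 TPM against 5.86, 3.49 and 2.52 TPM in cKO and 23.6 and 2.03 TPM against 2.2 and 4.38 TPM in dKO, so dKO plate 1 carried much of the difference. Fasn was positive in 53.8% of cycling and 35.4% of other cells, Ebp in 38.5% and 18.9%, and Hmgcs1 in 46.2% and 31.9%. By mean TPM Dhcr7 (4.69 in cycling against 9.32 in other cells) and Lss (5.39 against 8.82) went the other way. Of 21 members at 5 TPM in either kind of cell, 1 (Cyp51, 4.76%) was at least 2-fold higher in cycling cells and none lower. Over 7855 genes these shares were 7.64% and 5.70%. The members' median log2 ratio was 0.10, against 0.02 for all genes. Cycling cells held more genes on every plate (medians of 5421.5 to 6084 against 4682 to 5085), and the part of this in the shares was not tested.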
